A study of Homo sapiens with 12 samples.

Results

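Histone genes were selected by symbol from the table of gene counts of 2 human ovarian cancer cell lines treated with lestaurtinib, which blocks kinases such as FLT3 and JAK2. Rows whose symbol names a linker histone H1, a core histone H2A, H2B, H3 or H4, or a macroH2A were taken, which gave 40 of the 13869 genes listed. Of these, 30 were clustered genes, 23 on chromosome 6 and 7 on chromosome 1, and 10 were variants outside the clusters (H1-10, H2AJ, H2AX, H2AZ1, H2AZ2, H3-3A, H3-3B, H3-5, MACROH2A1 and MACROH2A2). The table lists only genes that reached an RPKM (reads scaled to gene length and to the library's total) above 1 in at least 1 library, so histone genes below that level were not analysed here.

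The 4 groups, of 3 libraries each, were MDAH-2774 cells with 500 nM lestaurtinib for 24 h, MDAH-2774 cells with DMSO vehicle, OVSAHO cells with 500 nM lestaurtinib for 24 h and OVSAHO cells with DMSO vehicle. Both lines are labelled wild type. The labels call MDAH-2774 an endometrioid and OVSAHO a high-grade serous ovarian cancer, so each tumour type is represented by a single established line. Separate cultures are not stated for the 3 libraries of a group. The p-values therefore cover only the spread among libraries, and that spread may be technical. Libraries held 32875940 to 55941446 counts. Of 9 epithelial and mullerian markers, 8 were measured, among them PAX8 at 184 ± 2.18 CPM (counts scaled to the library's total) in treated and 305 ± 8.05 CPM in vehicle MDAH-2774 cells, and at 235 ± 10.3 CPM in treated and 274 ± 19.4 CPM in vehicle OVSAHO cells (SD, n = 3 each). ESR1, which encodes oestrogen receptor alpha, was at 0 in every MDAH-2774 library. Of the 8 epithelial markers in MDAH-2774, 1 rose and 4 fell with lestaurtinib, where 8.08% of all genes tested rose and 9.05% fell. In OVSAHO 3 of the 8 rose and 2 fell, where 9.19% of all genes tested rose and 6.54% fell. Of 8 markers of other cell types, 3 were measured. The fibroblast and muscle markers COL1A1 and ACTA2 averaged between 0.184 and 6.05 CPM in the groups and passed in neither line. The macrophage marker CD68 fell in both, at 9.55 ± 0.858 CPM in treated and 26.3 ± 2.6 CPM in vehicle MDAH-2774 cells, and at 10.6 ± 1.86 CPM in treated and 14.7 ± 0.535 CPM in vehicle OVSAHO cells (SD, n = 3 each). The part of these marker changes in the results below was not tested.

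Core histones form the spool around which DNA winds in the nucleosome, and linker histones bind where DNA enters and leaves it. Clustered genes supply new histones while DNA is copied, and their mRNAs normally end in a conserved stem-loop, bound by SLBP, in place of a poly(A) tail. Variant genes are transcribed through the cell cycle, mostly give polyadenylated mRNAs, and replace core histones at particular places: H3.3 in active chromatin, H2A.Z at promoters, macroH2A in silent chromatin and H2A.X where its phosphorylation marks DNA breaks. The library kit was a stranded mRNA kit, and such kits capture poly(A) tails. A count for a clustered gene can therefore come from the polyadenylated share of its transcripts, and a change in total histone mRNA cannot be told apart from a change in that share. Cell number, RNA per cell and the share of cells copying DNA were not measured, so fewer cells that express a gene and less of its RNA per cell cannot be told apart.

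The stem-loop that sets the clustered class apart is shown for some of the genes named below that carry it in a GENCODE transcript. It is also shown for H2AX, the variant that carries one. Others named below, among them H2AC8 and H4C15, carry it as well and are not shown. None is shown for H2BC12, whose only matched transcript is 381 bases long and held no match, and whose model in the table has a second exon. Each sequence is the DNA strand of the transcript, from GENCODE v29 transcripts on hg38, with the 16-base stem-loop in capitals and 5 bases on each side in lower case.
H2AC6 (chr6:26124669-26124684, plus strand): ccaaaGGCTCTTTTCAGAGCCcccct
H2BC5 (chr6:26158587-26158602, plus strand): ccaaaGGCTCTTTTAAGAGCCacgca
H4C14 (chr1:149833032-149833047, plus strand): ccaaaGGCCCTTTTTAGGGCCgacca
H2AC25 (chr1:228457369-228457384, minus strand): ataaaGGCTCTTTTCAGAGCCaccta
H3C6 (chr6:26225596-26225611, plus strand): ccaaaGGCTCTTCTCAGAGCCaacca
H2AC13 (chr6:27808647-27808662, plus strand): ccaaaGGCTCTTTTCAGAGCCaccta
H2AX (chr11:119094898-119094913, minus strand): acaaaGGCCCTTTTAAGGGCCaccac
The stem-loop consensus was found in a transcript of 18 of the 28 clustered genes matched to GENCODE, and of 1 of the 10 variants. Counted by transcript and not by gene, it was in 0.0547% of all 206694 transcripts. Several genes without a match have only a transcript shorter than their model in the table, as H4C12 (312 against 354 bases) and H2AC17 (393 against 487). A stem-loop near the end of such a model could lie outside the transcript searched. A missing match therefore does not show that the gene lacks a stem-loop. Within the genes shown the 4-base loop was TTTC in H2AC6, H2AC25 and H2AC13, TTTA in H2BC5 and H2AX, TTTT in H4C14 and TCTC in H3C6. For 16 of the 18 clustered genes, the gene model counted in the table ends 5 to 9 bases after the stem-loop. The H2BC5 model runs on into downstream exons. GENCODE nevertheless lists transcripts that run more than 100 bases past the stem-loop for 14 of the 18. The poly(A) signal AATAAA lay in the last 40 bases of at least 1 transcript of 13 clustered genes and 5 variants. Counted by transcript, 23.9% of all had it. Many of these genes have several transcripts, so the counts of genes cannot be set against that share. Reads from extensions of more than 100 bases past the stem-loop lay outside the models of those 14 genes.

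The median level of the variants exceeded that of the clustered genes in every group, although single genes of the classes overlapped. The median level over the genes of a class was 1.82 RPKM for the 30 clustered genes and 41.2 RPKM for the 10 variants in treated MDAH-2774 cells, against 0.873 and 40.8 RPKM in vehicle cells. In OVSAHO the medians were 0.51 and 28.9 RPKM in treated and 0.341 and 27.9 RPKM in vehicle cells. H2AZ1, which encodes H2A.Z, was the highest variant in MDAH-2774, at 446 ± 8.69 RPKM in treated and 454 ± 10.7 RPKM in vehicle cells, and H3-3A, one of a pair of genes for H3.3, was the highest in OVSAHO, at 417 ± 0.254 and 503 ± 31.9 RPKM (SD, n = 3 each). The order below them was H3-3A, H3-3B and MACROH2A1 in MDAH-2774, and H2AZ1, H3-3B and MACROH2A1 in OVSAHO. In vehicle MDAH-2774 cells the neighbours H3-3A (253 ± 14.4 RPKM) and H3-3B (205 ± 14.2 RPKM) lay further apart than their SDs. H2BC12, an H2B gene, was the highest clustered gene in all 4 groups, at 26.6 ± 2.51 RPKM in treated and 13.2 ± 2.13 RPKM in vehicle MDAH-2774 cells, and at 8.17 ± 1.74 and 9.12 ± 2.24 RPKM in OVSAHO. It alone held 30% of the summed clustered CPM in treated and 31.6% in vehicle MDAH-2774 cells, and 25.8% and 28.4% in OVSAHO. Counts were sparse for many clustered genes: every library was above 0 for 28 of 30 in treated and 19 of 30 in vehicle MDAH-2774 cells, and for 11 and 12 of 30 in OVSAHO.

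**Figure D1:**
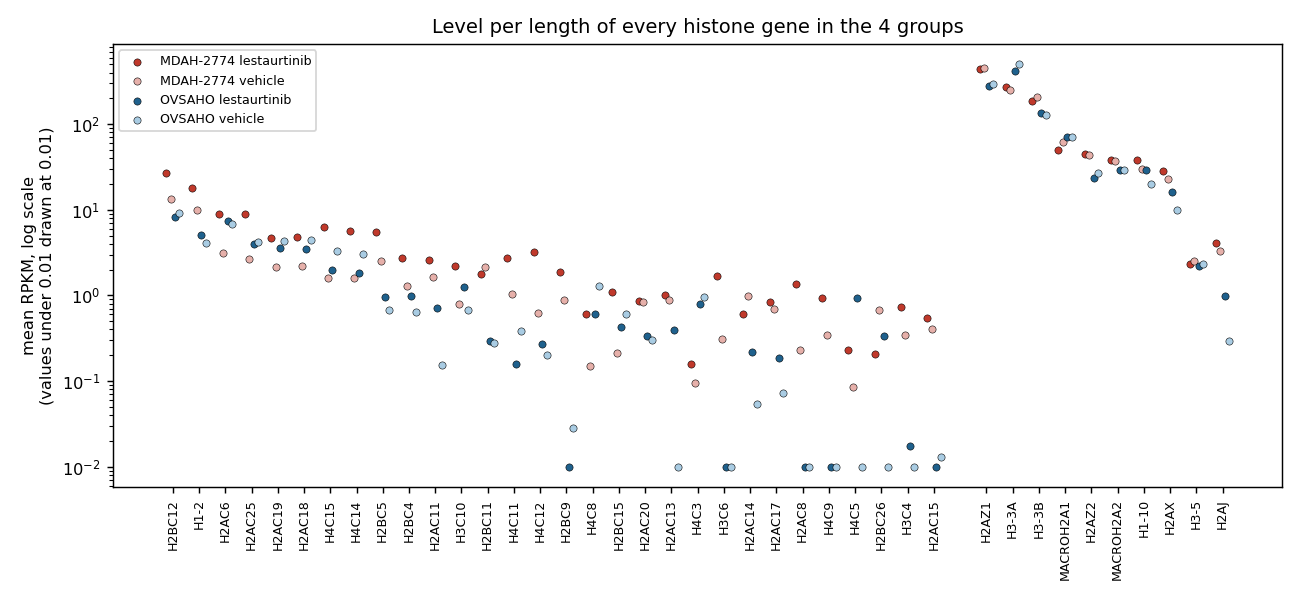
Mean level of each histone gene (RPKM, log axis, values under 0.01 drawn at 0.01) in treated and vehicle cells of both lines, clustered genes at the left and variants at the right, each class ordered by its mean over the groups. H2BC12 leads the clustered genes at 8.17 to 26.6 RPKM, while H2AZ1 and H3-3A lie at 253 RPKM or more in every group.

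In MDAH-2774 cells the summed level of the clustered genes was higher with lestaurtinib, while 4 of the 28 tested rose gene by gene. The sum was 68.4, 72.4 and 65.3 CPM in the treated libraries, against 29.6, 32.8 and 37.8 CPM in the vehicle libraries. The groups did not overlap, and the ratio of the means was 2.06. The sum was higher for each family: 1.73 times for H1-2, the only clustered linker gene listed, 2.2 times for the 11 H2A genes, 1.9 times for the 7 H2B genes, 2.92 times for the 3 H3 genes and 3.45 times for the 8 H4 genes. Without the most abundant genes H2BC12, H1-2 and H2BC5 the ratio was 2.31. It was 1.96 on chromosome 6 and 2.56 on chromosome 1. These sums carry no test of their own.

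**Figure D2:**
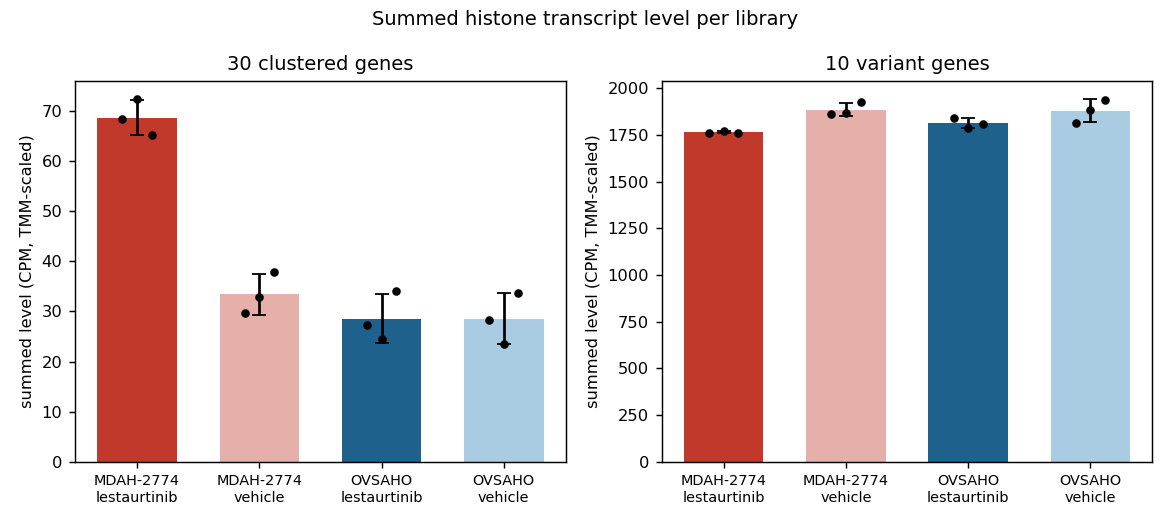
Summed level per library (CPM on TMM-scaled library sizes) of the 30 clustered and the 10 variant genes, with bars at the group mean, error bars of 1 SD and a point per library. The clustered sum lay at 65.3 to 72.4 CPM in treated and at 29.6 to 37.8 CPM in vehicle MDAH-2774 libraries, while the clustered sums of the OVSAHO groups overlapped.

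Tested gene by gene with edgeR's quasi-likelihood test, 4 of the 28 clustered genes that passed the filter on low counts rose in MDAH-2774 and 0 fell (0 fell also at an unadjusted p under 0.05, by DESeq2 and by limma-voom), where 8.08% of all 13498 genes tested rose and 9.05% fell. The treated and vehicle libraries did not overlap for 16 of all 30, each higher with lestaurtinib, and for 0 in the other direction. Of all genes tested, 19.8% were higher and 18.9% lower without overlap. The 16 were 11 of the 23 genes on chromosome 6 and 5 of the 7 on chromosome 1. The 5 include the near copies H2AC18 and H2AC19, and H4C14 and H4C15, which are described below. The 11 include H4C11 and H4C12, whose promoter windows are nearly the same letter by letter. Their counts were 211 and 208 over the libraries and differed library by library by 14.08%, so this pair may not be independent either. The median log2 change of the 28 was 1.08, beside 0.01 over all genes tested, and 24 of the 28 values were above 0. These genes passed the table's floor and the filter partly through the libraries in which they were high, so counts over them describe the listed genes and not the histone clusters as a whole. H2AC15 and H4C5 did not pass the filter.

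H2BC12 (chromosome 6, 27138293 to 27146858, minus strand, 2 exons) had 21.2, 22.1 and 18.6 CPM in treated and 8.85, 10.7 and 12.2 CPM in vehicle MDAH-2774 libraries. All treated libraries were above all vehicle libraries. The log2 change was 0.96 ± 0.19 (SE, adjusted p = 0.00227 by edgeR's quasi-likelihood test with Benjamini-Hochberg adjustment, n = 3 each), and it was called in all 22 alternatives tried. H2AC6, an H2A gene (chromosome 6, 26124145 to 26124690, 1 exon), had 4.15, 5.01 and 4.29 CPM in treated and 1.19, 1.8 and 1.91 CPM in vehicle libraries. Again the groups did not overlap, with a log2 change of 1.46 ± 0.39 (edgeR adjusted p = 0.016). The H2AC6 call was lost without treated replicate 2 (edgeR adjusted p = 0.0658) and without vehicle replicate 1 (0.0616).

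H2BC5, an H2B gene (chromosome 6, 26157843 to 26171349, 3 exons), had 6.1, 8.09 and 6.24 CPM in treated and 3.06, 3.32 and 3.31 CPM in vehicle MDAH-2774 libraries, a log2 change of 1.07 ± 0.33 (edgeR adjusted p = 0.0347). H4C14, an H4 gene (chromosome 1, 149832657 to 149833052, 1 exon), had 103, 120 and 95 counts in treated and 44, 11 and 26 counts in vehicle libraries. In CPM these were 1.95, 2.31 and 2.01 against 0.949, 0.283 and 0.598, a log2 change of 1.76 ± 0.57 (edgeR adjusted p = 0.0408). Neither gene's groups overlapped. The H2BC5 call was lost without any 1 of the 6 MDAH-2774 libraries, with edgeR adjusted p from 0.0679 to 0.177. The H4C14 call was lost without any 1 treated library and without vehicle replicate 2 or 3, with edgeR adjusted p from 0.0866 to 0.135. The count of clustered genes that rose was 2 without treated replicate 1, 1 without treated replicate 2, 2 without treated replicate 3 and 2 without vehicle replicate 2. With other tools the count was larger: DESeq2 called 9 clustered genes higher and limma-voom 12.

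H4C14 and H4C15 lie close together on chromosome 1 as near copies, as do H2AC18 and H2AC19. Summed over the libraries, the counts of H2AC18 and H2AC19 were 1038 and 1036 and differed library by library by 22 counts in all, or 1.06%, and those of H4C14 and H4C15 were 641 and 692 and differed by 5.78%. The sources used here do not give how reads matching both copies were assigned. The members of these pairs are therefore uncertain and are not independent of each other. Without H2AC19 and H4C15 the ratio of the clustered sums in MDAH-2774 was 2.02. H4C15 had log2 1.89 ± 0.7 (edgeR adjusted p = 0.0754), H2AC18 1.09 ± 0.4 (0.0707) and H2AC19 1.08 ± 0.39 (0.0704), so none of the 3 passed the threshold.

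The remaining clustered genes did not pass in MDAH-2774. H1-2, a linker histone gene (chromosome 6, 26055740 to 26056471, minus strand), had 11.2, 12.1 and 12.8 CPM in treated and 6.54, 5.97 and 8.24 CPM in vehicle libraries. The groups did not overlap, the log2 change was 0.8 ± 0.27, and the edgeR adjusted p was 0.0555, just outside the threshold. H2AC25, an H2A gene (chromosome 1, 228457364 to 228457859, minus strand), had 3.88, 4.35 and 3.93 CPM in treated and 0.583, 1.62 and 1.52 CPM in vehicle libraries, with log2 1.71 ± 0.61 (edgeR adjusted p = 0.0654). H2AC8 had 41, 46 and 21 counts in treated and 11, 0 and 6 counts in vehicle libraries, and H3C6 had 49, 28 and 32 against 19, 0 and 0. Both were at 0 in all 6 OVSAHO libraries and exceeded 1 RPKM only in treated MDAH-2774 libraries. They were therefore listed only through the group in which they were high, and their place among the genes without overlap depends in part on that. The 4 genes with a log2 change below 0 were H2AC20 at -0.03, H2BC11 at -0.32, H2AC14 at -0.69 and H2BC26 at -1.75, and each had overlapping groups.

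**Figure D3:**
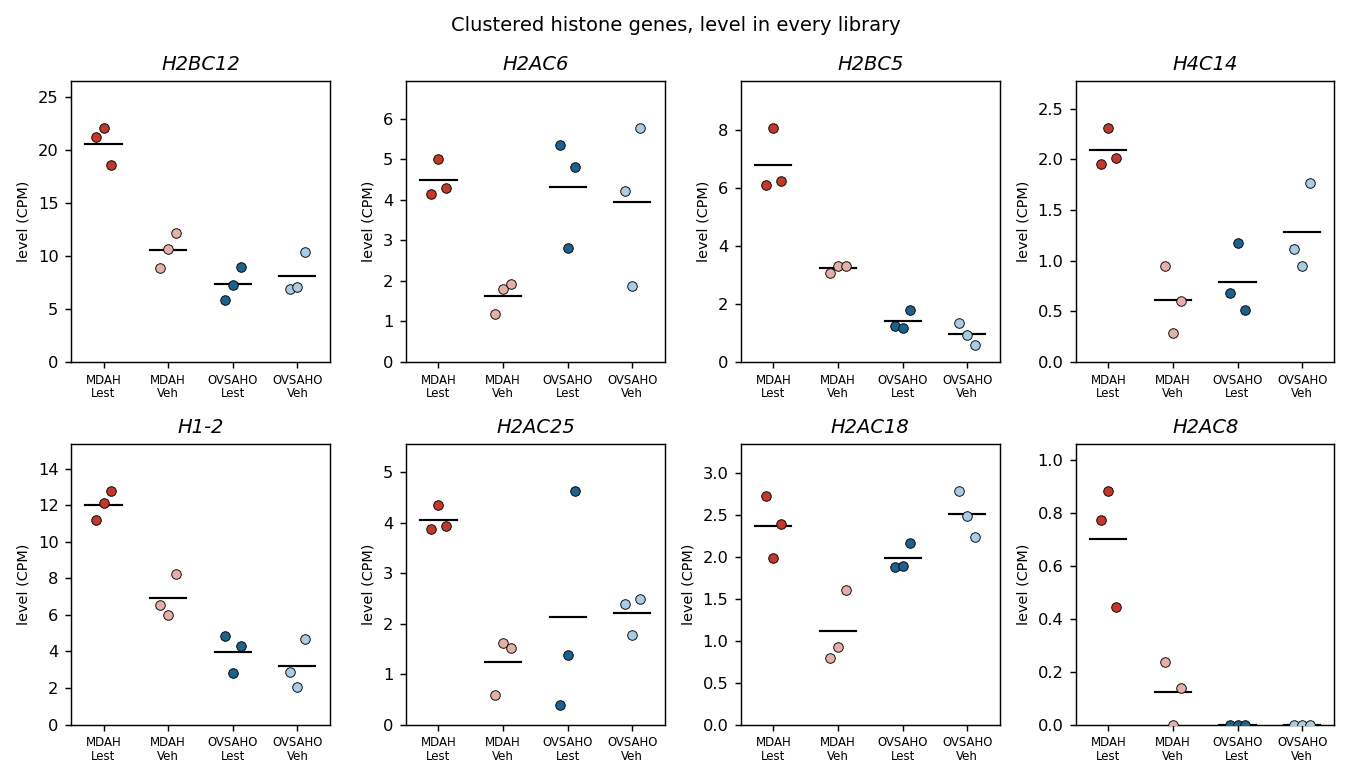
Level of 8 clustered genes in every library (CPM, a point per library and a line at the group mean), in treated and vehicle cells of both lines. In MDAH-2774 no treated point of these 8 genes falls among the vehicle points, as for H2BC12 with 18.6 to 22.1 CPM against 8.85 to 12.2 CPM. All 8 belong to the 16 of 30 clustered genes without overlap there, so the panel does not describe the class. H1-2, H2AC25, H2AC18 and H2AC8 did not pass the threshold. H2AC8 exceeded 1 RPKM, the level needed to be listed, only in treated MDAH-2774 libraries.

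In OVSAHO cells the clustered genes gave no such difference. Their summed level was 27.3, 24.5 and 34 CPM in treated and 28.4, 23.6 and 33.7 CPM in vehicle libraries, with a ratio of 1. Of 28 genes tested 1 rose and 0 fell by edgeR (0 fell also at an unadjusted p under 0.05, by DESeq2 and by limma-voom), where 9.19% of all genes tested rose and 6.54% fell. None of the 30 was higher without overlap (15.5% of all genes tested), and 2, the near copies H2AC18 and H2AC19, were lower without overlap (15% of all genes tested). H2AC18 had 1.88, 1.89 and 2.17 CPM in treated and 2.79, 2.49 and 2.24 CPM in vehicle libraries, but its log2 change of -0.34 ± 0.39 did not pass (edgeR adjusted p = 0.615). For H2BC12, with 5.87, 7.28 and 9 CPM in treated and 6.89, 7.09 and 10.4 CPM in vehicle libraries, the log2 change was -0.13 ± 0.2 (edgeR adjusted p = 0.724) with a 95% interval from -0.52 to 0.26. For H2AC6 it was 0.13 with an interval from -0.62 to 0.87, for H2BC5 0.55 with an interval from -0.16 to 1.25, and for H4C14 -0.7 with an interval from -1.8 to 0.41.

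The clustered gene called in OVSAHO was H2AC13, an H2A gene (chromosome 6, 27808199 to 27808667), with 0, 8 and 13 counts in treated and 0, 0 and 0 counts in vehicle libraries. Treated replicate 1 shared the vehicle value of 0, so the groups overlapped. Against a floor of 3 counts over the vehicle group, the pooled treated level was 3.2 log2 units higher. That value carries no test and leaves out the spread of the treated counts, so it is not a lower limit of the change. The edgeR adjusted p of 0.0462 belongs to the fitted log2 change of 6.13 ± 1.96, whose size rests on a vehicle group at 0 counts. The call was lost without any 1 OVSAHO library except treated replicate 1, with edgeR adjusted p from 0.0927 to 0.137, and without any 1 MDAH-2774 library, from 0.0518 to 0.0706. It remained in 4 of 20 alternatives.

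Among the variants, 1 of 10 fell and 0 rose in MDAH-2774 by edgeR, where 9.05% of all genes tested fell and 8.08% rose. The number lower was 2 at an unadjusted p under 0.05, by DESeq2 and by limma-voom, and the number higher was 0 by each of these. H1-10 was called higher without vehicle replicate 3 (edgeR adjusted p = 0.0386). MACROH2A1, which encodes macroH2A1 (chromosome 5, 135334381 to 135400147, minus strand, 13 exons), had 223, 230 and 235 CPM in treated and 288, 288 and 294 CPM in vehicle libraries. All treated libraries were below all vehicle libraries, and it fell by 0.34 ± 0.05 on the log2 scale (edgeR adjusted p = 0.000111). H3-3B, a gene for H3.3 (chromosome 17, 75776434 to 75779935, minus strand, 4 exons), had 512, 509 and 480 CPM in treated and 522, 581 and 579 CPM in vehicle libraries. Its treated libraries were all below its vehicle libraries, with log2 -0.16 ± 0.06 and an edgeR adjusted p of 0.0548. The variant sum was 0.936 of the vehicle sum, at 1766.3 ± 5.76 CPM in treated and 1887.1 ± 36.6 CPM in vehicle cells (SD, n = 3 each).

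In OVSAHO 3 of the 10 variants rose and 1 fell, where 9.19% of all genes tested rose and 6.54% fell. Their sum was 0.965 of the vehicle sum. H2AJ, an H2A variant gene reported to accumulate its product in senescent human cells (chromosome 12, 14774336 to 14778002), had 3.63, 2.5 and 5.44 CPM in treated and 1.42, 1.54 and 0.527 CPM in vehicle libraries. The groups did not overlap, and the log2 change was 1.72 ± 0.33 (edgeR adjusted p = 0.00173). H2AX (chromosome 11, 119093874 to 119095467, minus strand) had 26.3, 29.3 and 27 CPM in treated and 20.8, 15.1 and 14.1 CPM in vehicle libraries, a log2 change of 0.72 ± 0.17 (edgeR adjusted p = 0.00655). Its groups did not overlap either.

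The linker variant gene H1-10 also rose in OVSAHO. H1-10 (chromosome 3, 129314771 to 129316277, minus strand) had 39.8, 47.5 and 53 CPM in treated and 35.1, 25 and 34.8 CPM in vehicle libraries, a log2 change of 0.57 ± 0.16 (edgeR adjusted p = 0.0239). Its groups did not overlap. The H1-10 call was lost without treated replicate 2, treated replicate 3 or vehicle replicate 2 (edgeR adjusted p = 0.0641, 0.117 and 0.112). H3-3A (chromosome 1, 226062707 to 226072002, 4 exons) had 479, 474 and 478 CPM in treated and 526, 602 and 574 CPM in vehicle libraries. It fell by 0.25 ± 0.05 on the log2 scale (edgeR adjusted p = 0.00449), and the groups did not overlap. The calls of H2AJ, H2AX and H3-3A were made in all 22 alternatives.

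H2AZ1, H2AZ2, MACROH2A2 and H3-5 passed in neither line. The log2 changes of H2AZ1 were -0.07 ± 0.05 in both, with 379, 395 and 397 CPM in treated and 421, 395 and 417 CPM in vehicle MDAH-2774 libraries and with 296, 282 and 278 CPM in treated and 292, 303 and 302 CPM in vehicle OVSAHO libraries. Both sets overlapped. H3-5 derives from H3-3B by retrotransposition and its counts are uncertain, since reads of its parent may match it. MACROH2A1 and MACROH2A2 overlap genes on the opposite strand, PITX1-AS1 by 175 bases and AIFM2 by 18 bases. No source used here says whether the authors' counting used the strand, and without it reads in those stretches cannot be assigned.

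**Figure D4:**
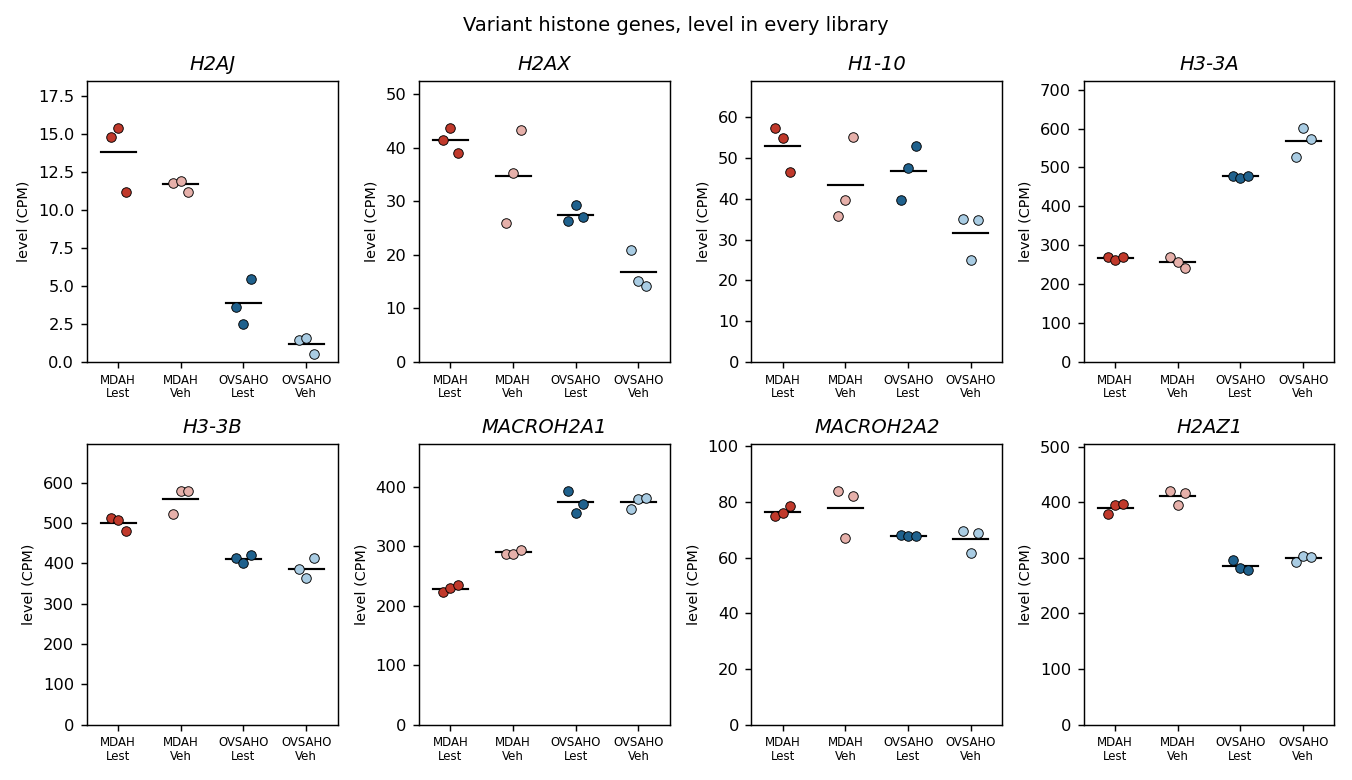
Level of 8 variant genes in every library (CPM, a point per library and a line at the group mean), in treated and vehicle cells of both lines. In OVSAHO, H2AJ, H2AX and H1-10 separate treated from vehicle upward and H3-3A downward. In MDAH-2774, MACROH2A1 separates downward with 223 to 235 CPM against 288 to 294 CPM, and so does H3-3B, which did not pass the threshold.

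The difference of the changes was tested directly as OVSAHO minus MDAH-2774. Among the clustered genes 2 of 28 were lower and 0 higher (2 higher at an unadjusted p under 0.05, 0 by DESeq2 and by limma-voom), and among the variants 3 of 10 were higher and 1 lower, where 9.22% of all genes tested were higher and 7.59% lower. For H2BC12 the log2 change was -0.13 in OVSAHO and 0.96 in MDAH-2774, a difference of -1.1 ± 0.28 (edgeR adjusted p = 0.0126). For H4C14 the changes were -0.7 and 1.76, a difference of -2.46 ± 0.8 (edgeR adjusted p = 0.0432). H2AC6 and H2BC5, which rose in MDAH-2774 and did not pass in OVSAHO, had differences of -1.33 ± 0.54 (edgeR adjusted p = 0.108) and -0.53 ± 0.49 (0.514), so these were not shown to differ between the lines. Among the variants, MACROH2A1 differed by 0.34 ± 0.07 (edgeR adjusted p = 0.00271), H2AJ by 1.48 ± 0.44 (0.0283), H3-3A by -0.31 ± 0.08 (0.0124) and H3-3B by 0.25 ± 0.08 (0.0376). H2AX (0.47 ± 0.23, edgeR adjusted p = 0.186) and H1-10 (0.28 ± 0.22, 0.433) rose in OVSAHO without a called difference.

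Of these 6 calls, those of H2BC12, H3-3A and MACROH2A1 were made in all 21 alternatives tried. H2AJ was called in 13 of 21, H4C14 in 11 of 21 and H3-3B in 7 of 21. The number of variants higher was 1 without treated MDAH-2774 replicate 1, 2 or 3, without vehicle MDAH-2774 replicate 2 or without treated OVSAHO replicate 3, 4 without vehicle MDAH-2774 replicate 1, and 2 without any other 1 library.

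**Figure D5:**
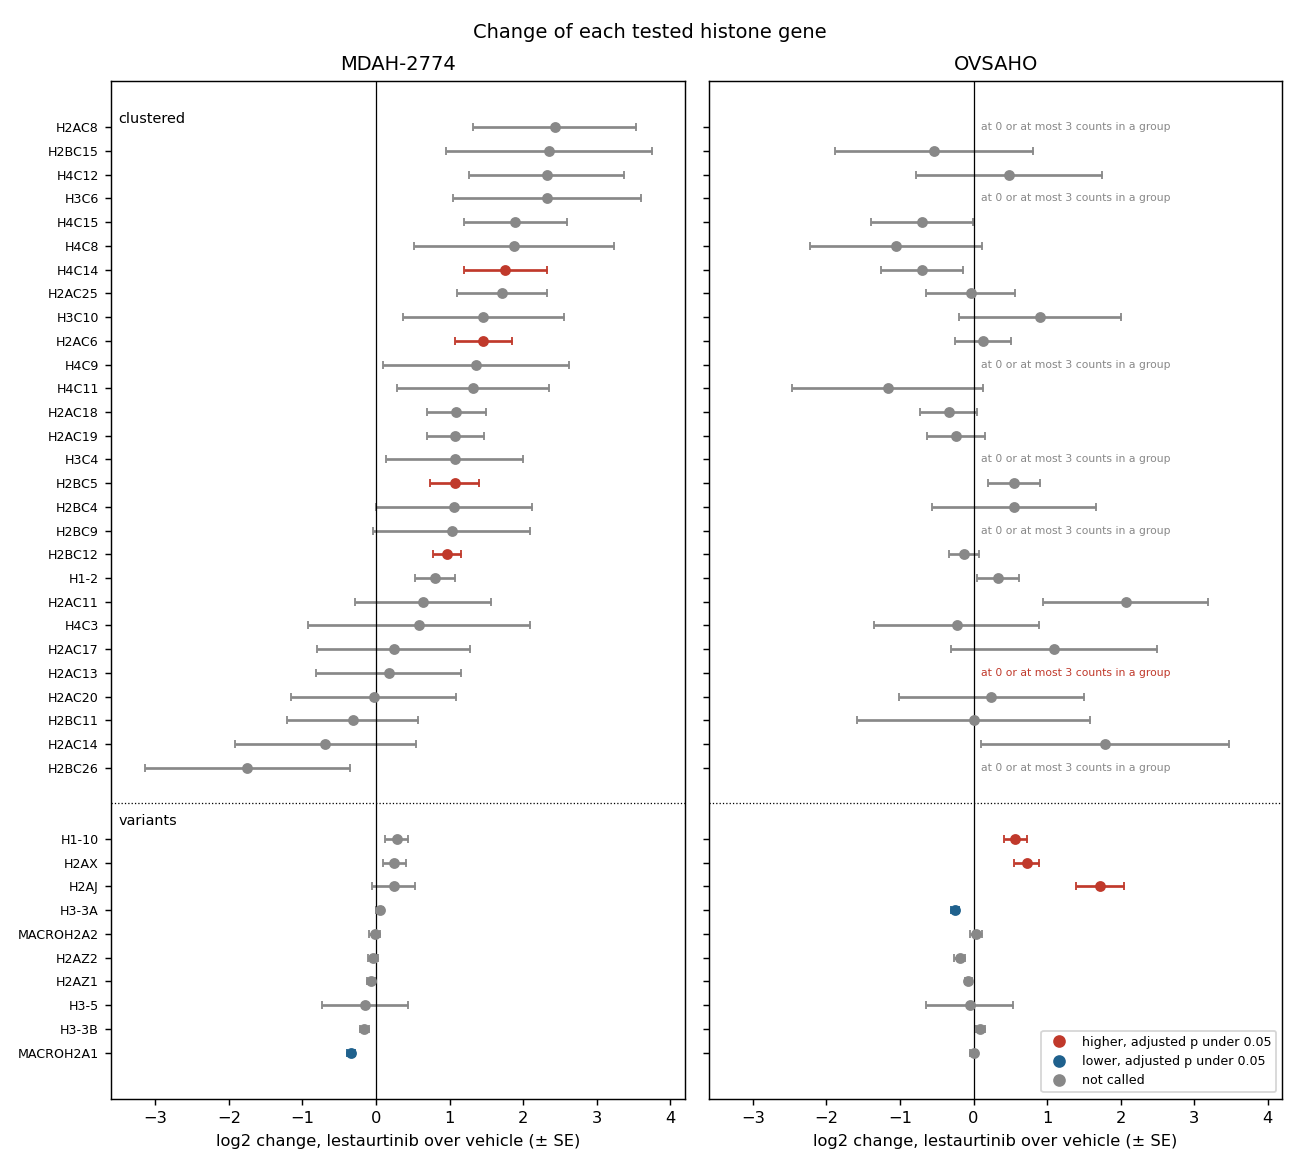
Log2 change with lestaurtinib over vehicle (± SE) of the 38 tested histone genes in MDAH-2774 and OVSAHO, clustered genes above and variants below the dotted line, with coloured points past the adjusted p of 0.05. Most clustered genes lie right of 0 in MDAH-2774 with a median of 1.08, and genes with too few counts in a group for a fold carry a note in place of a point.

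The vehicle groups of the lines were also compared, in which most genes of the table differed. Vehicle OVSAHO and MDAH-2774 cells had a clustered sum of 28.6 ± 5.06 and 33.4 ± 4.15 CPM (SD, n = 3 each), and the ratio of the sums was 0.662 on chromosome 6 and 1.88 on chromosome 1. Of 28 clustered genes tested, 5 were higher in OVSAHO and 12 lower, where 77.4% of all genes tested were called, 38.6% higher and 38.9% lower, so the share of clustered genes called was below that of all genes. The 5 were H2AC6 (log2 1.27), H2AC18 (1.17), H2AC19 (1.15), H4C3 (3.27) and H4C8 (3.15). Groups overlapped for H2AC6, and the calls were made in 14 of 20 alternatives for H4C3 and in 11 of 20 for H4C8. On chromosome 1, 5 of 7 genes were higher in OVSAHO without overlap (H2AC18, H2AC19, H2AC25, H4C14 and H4C15), where 38.7% of all genes tested were. Of these, the near copies H2AC18 and H2AC19 passed. H4C14 and H4C15 are near copies as well, so the 5 are not all independent of each other. H2BC5 had 1.36, 0.926 and 0.58 CPM in vehicle OVSAHO and 3.06, 3.32 and 3.31 CPM in vehicle MDAH-2774 libraries, with log2 -1.74 ± 0.35 (edgeR adjusted p = 0.000251). Counts were at 0 in all vehicle OVSAHO libraries for 6 clustered genes, among them H2AC8, H3C6, H4C9 and H2AC13. For 9 of 30 the 3 vehicle OVSAHO libraries together held at most 3 counts. These include H2BC26, H3C4, H2AC8, H3C6, H2BC9, H4C9 and H2AC13, which are among the 12 called lower. H2AC8, H3C6 and H4C9 were at 0 in every OVSAHO library, and their lower calls were made in 13, 7 and 7 of 20 alternatives. These genes, and H2BC26, H3C4, H2BC9, H2BC11, H2AC13 and H2AC14 of the 12, exceeded 1 RPKM only in MDAH-2774 libraries, treated or vehicle. H4C3 and H4C8 of the 5 exceeded it only in OVSAHO libraries. Each was thus listed only through the line in which it was high, so the 5 and 12 describe listed genes only. The number lower was 6 without vehicle OVSAHO replicate 2, and the number higher was 3 without it, without vehicle OVSAHO replicate 3, without vehicle MDAH-2774 replicate 2 or without treated MDAH-2774 replicate 1.

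Of the 10 variants, 2 were higher and 7 lower in vehicle OVSAHO than in vehicle MDAH-2774 cells, where 77.4% of all genes tested were called. H2AJ had 1.42, 1.54 and 0.527 CPM in OVSAHO and 11.8, 11.9 and 11.2 CPM in MDAH-2774 libraries, a log2 difference of -3.31 ± 0.33 (edgeR adjusted p = 8.2e-08). H2AX was also lower, with log2 -1.06 ± 0.16 (1.59e-05). H3-3A was higher, with 526, 602 and 574 CPM in OVSAHO and 271, 257 and 241 CPM in MDAH-2774 libraries (log2 1.15 ± 0.06, edgeR adjusted p = 4.21e-12), while H3-3B, which encodes the same protein, was lower (-0.53 ± 0.06, 1.46e-07). Per length, H3-3A exceeded H3-3B 3.96 ± 0.446 times in vehicle OVSAHO and 1.24 ± 0.147 times in vehicle MDAH-2774 cells (ratio of RPKM within each library, SD, n = 3 each). With lestaurtinib the ratio was 3.11, 3.18 and 3.05 in treated and 3.67, 4.47 and 3.74 in vehicle OVSAHO libraries, which did not overlap, and 1.41, 1.38 and 1.51 in treated and 1.4, 1.19 and 1.12 in vehicle MDAH-2774 libraries, which did. The MACROH2A1 to MACROH2A2 ratio was 1.31, 1.33 and 1.31 in treated and 1.51, 1.89 and 1.58 in vehicle MDAH-2774 libraries, without overlap. These ratios carry no test, and an exact permutation test of 3 against 3 libraries cannot give a two-sided p below 0.1.

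Genes that serve the histone genes were read from lists of transcription and 3′ end processing factors, of chaperones and of S phase genes. Of 42 S phase and replication genes, 0 rose and 20 fell in MDAH-2774 by edgeR (1 rose at an unadjusted p under 0.05, 0 by DESeq2 and by limma-voom), with a median log2 change of -0.24, where 8.08% of all genes tested rose and 9.05% fell, and 2 rose and 4 fell in OVSAHO, with a median of 0, where 9.19% of all genes tested rose and 6.54% fell. The 5 of lowest adjusted p in MDAH-2774 were the replicative helicase genes MCM7 (-0.33 ± 0.04) and MCM5 (-0.57 ± 0.09), the origin recognition gene ORC1 (-0.6 ± 0.08), the sliding clamp gene PCNA (-0.36 ± 0.06) and CDC45 (-0.53 ± 0.09), with edgeR adjusted p from 3.35e-05 to 0.000477. In OVSAHO they were the primase gene PRIM1 (-0.42 ± 0.08), the polymerase gene POLD1 (0.56 ± 0.15), RRM1 (-0.19 ± 0.06), MCM5 (0.31 ± 0.1) and the clamp loader gene RFC5 (-0.25 ± 0.08). The lower S phase genes stood in the same treated MDAH-2774 libraries as the higher clustered histone counts, and their part in that result was not tested. The test of the difference called 12 of the 42 S phase genes higher and 0 lower (0 lower also at an unadjusted p under 0.05, by DESeq2 and by limma-voom). Of all genes tested, 9.22% were higher and 7.59% lower in that test.

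Of 29 measured genes of histone gene transcription and 3′ end processing, 2 rose and 4 fell in MDAH-2774 and 4 rose and 0 fell in OVSAHO by edgeR (2 fell at an unadjusted p under 0.05, 0 by DESeq2 and by limma-voom). Of all genes tested, 8.08% rose and 9.05% fell in MDAH-2774, and 9.19% rose and 6.54% fell in OVSAHO. In MDAH-2774 the cap-binding gene NCBP2 (0.39 ± 0.07) and UPF1, an RNA helicase gene that acts in histone mRNA decay (0.29 ± 0.08), rose, while the cyclin A2 gene CCNA2 (-0.51 ± 0.09), its kinase gene CDK2 (-0.37 ± 0.07), the cleavage factor gene CSTF2 (-0.34 ± 0.07) and the transcription factor gene E2F1 (-0.37 ± 0.07) fell. In OVSAHO the cap-complex gene SRRT (0.3 ± 0.07), UPF1 (0.34 ± 0.08), E2F1 (0.31 ± 0.07) and LSM10, of the U7 particle (0.36 ± 0.09), rose. The changes of UPF1 in OVSAHO and MDAH-2774 differed by 0.05 ± 0.11 (edgeR adjusted p = 0.802), which is not called. SLBP, the stem-loop binding protein gene, and NPAT, the activator of clustered histone transcription, passed in neither line. Of 41 measured chaperone and deposition genes, 3 rose and 7 fell in MDAH-2774. Those of lowest adjusted p were HAT1, which acetylates new H4 (-0.47 ± 0.08), the CENP-A chaperone gene HJURP (-0.35 ± 0.06), NAP1L1 (0.25 ± 0.05), UBN2 of the H3.3 chaperone complex (0.43 ± 0.1) and the H3.3 chaperone gene DAXX (-0.24 ± 0.06). In OVSAHO 3 rose and 0 fell by edgeR (1 fell at an unadjusted p under 0.05, 1 by DESeq2 and 0 by limma-voom). The 3 were RUVBL1 (0.25 ± 0.06), RUVBL2 (0.37 ± 0.09) and ZNHIT1 (0.35 ± 0.09), which take part in H2A.Z exchange. All changes here are log2 values ± SE from the same edgeR fit.

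Promoter windows from RefSeq on GRCh38.p14, from 250 bases before to 50 after each gene's start, are shown for the clustered genes H2BC12 and H2AC6 and for the variant H2AJ, whose changes are described above. Capitals mark the motifs searched on both strands: the CCAAT box, TATAAA and the octamer ATTTGCAT.
H2BC12 (chr6:27146809-27147108, minus strand): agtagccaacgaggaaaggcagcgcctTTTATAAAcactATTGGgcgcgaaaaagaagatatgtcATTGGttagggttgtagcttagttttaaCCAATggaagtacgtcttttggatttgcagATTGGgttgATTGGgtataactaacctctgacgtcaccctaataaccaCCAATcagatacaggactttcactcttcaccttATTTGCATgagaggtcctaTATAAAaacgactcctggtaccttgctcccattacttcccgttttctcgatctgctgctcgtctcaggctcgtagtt
H2AC6 (chr6:26123922-26124221, plus strand): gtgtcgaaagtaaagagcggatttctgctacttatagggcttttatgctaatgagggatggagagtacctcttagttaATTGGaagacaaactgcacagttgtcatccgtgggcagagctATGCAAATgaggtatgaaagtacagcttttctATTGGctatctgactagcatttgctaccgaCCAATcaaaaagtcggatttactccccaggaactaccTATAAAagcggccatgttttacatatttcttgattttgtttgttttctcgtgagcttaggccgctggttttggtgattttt
H2AJ (chr12:14774155-14774454, plus strand): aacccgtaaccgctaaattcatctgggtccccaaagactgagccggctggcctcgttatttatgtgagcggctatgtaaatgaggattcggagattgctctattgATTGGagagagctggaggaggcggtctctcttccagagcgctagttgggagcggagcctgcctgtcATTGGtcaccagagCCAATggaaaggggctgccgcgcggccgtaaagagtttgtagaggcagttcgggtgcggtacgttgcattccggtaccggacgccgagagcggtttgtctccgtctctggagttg
CCAAT was found in 79.3% of the 29 clustered genes and 77.8% of the 9 variants with a window, against 39.7% of all 27305 genes. TATAAA was found in 62.1%, 44.4% and 14% of the same sets, and the octamer in 37.9%, 11.1% and 2.19%. All 7 clustered H2B genes held CCAAT and 4 of them the octamer, while of 7 clustered H4 genes 1 held CCAAT and 0 the octamer. H2BC12 held the octamer on its own strand at position -46 from the start and TATAAA at -27, and H2AC6 held the octamer on the other strand at -130 and TATAAA at -31. In H2AJ neither of these 2 motifs was in the window. Where capitals of neighbouring matches touch or overlap, as for the TATAAA matches on both strands of H2BC12, they run together. A match is only a match of letters in these windows.

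Several clustered genes stand head to head and share most of the window. H2AC25 and H2BC26 shared 271 bases, H2AC6 and H2BC4 255, H2AC11 and H2BC11 253, and H2AC15 and H2BC15 293. Values follow for the pairs H2AC25 and H2BC26, and H2AC6 and H2BC4. H2AC25 was at 8.84 ± 0.589 RPKM in treated and 2.63 ± 1.23 RPKM in vehicle MDAH-2774 cells, and H2BC26 at 0.205 ± 0.0705 and 0.679 ± 0.755 RPKM (SD, n = 3 each). H2AC6 exceeded H2BC4 per length 3.03, 3.31 and 3.32 times in treated MDAH-2774 libraries. In vehicle libraries H2BC4 had 0, 23 and 44 counts, and H2BC4 had log2 1.06 ± 1.06 (edgeR adjusted p = 0.562) where H2AC6 had 1.46 ± 0.39.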

How the data were processed

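Per the labels, stranded mRNA libraries were made from total RNA (miRNeasy kit). The submitters' processing notes name STAR (2.7.3a), featureCounts (2.8.2, as listed) and hg38. The deposited table holds the authors' read counts per gene, without normalization, their RPKM values and gene length. The strand setting and the handling of reads with several matches are not given in the sources used here. The test was edgeR 4.0.16's quasi-likelihood fit (R 4.3.3), made once over the 12 libraries after TMM scaling. Each group was a term. The filter was filterByExpr (minimum count 10), which kept 13498 genes and removed 371. The biological coefficient of variation was 0.125. Benjamini-Hochberg adjustment ran over all genes, with a threshold of 0.05. SE is the log2 change divided by the root of F, and 95% intervals are normal. CPM uses TMM-scaled totals, and levels are compared between genes in RPKM. No replicate pair agreed within sampling noise (chi-square over its degrees of freedom was 5.75 to 28.18). Alternatives were other scaling, filters, DESeq2 1.42.0, limma 3.58.1 (voom, and log2 of RPKM plus 1 or 0.1), a replicate block, fits of 1 line and fits without 1 library. Members, lists and named genes (called members, the highest of each class and up to 5 called genes per list) were chosen with earlier results of these data known. Other members named as near the threshold or as pairs were chosen after their values were seen. Of the genes that match the rule, 1 is not reported here.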

Additional observations from a re-analysis of the deposited data

Results flagged for a closer look

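By edgeR's quasi-likelihood test of OVSAHO minus MDAH-2774, the change with lestaurtinib differed between the lines for 6 histone genes. They were among 28 clustered genes and 10 variants tested, where 16.8% of all 13498 genes tested differed. The log2 difference was -2.46 for H4C14 and -1.1 for H2BC12, both clustered genes that were higher with lestaurtinib in MDAH-2774. H4C14 has a near copy, H4C15, and how reads that match both were assigned is not known here. Among the variants it was -0.31 for H3-3A, 1.48 for H2AJ, 0.25 for H3-3B and 0.34 for MACROH2A1. H2AJ was higher with lestaurtinib in OVSAHO, H3-3A was lower there, and MACROH2A1 was lower in MDAH-2774. H3-3B passed in neither line on its own. Of 21 alternatives, the calls of H2BC12, H3-3A and MACROH2A1 were made in all. H2AJ was called in 13, H4C14 in 11 and H3-3B in 7.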

How the results depend on the processing

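The number of clustered genes higher in MDAH-2774, 4 by edgeR, was 9 with DESeq2, 12 with limma-voom, 12 with limma on log2(RPKM + 1), 10 on log2(RPKM + 0.1) and 7 with MDAH-2774 alone, and 1 to 6 leaving out 1 library. Variants lower there, 1 by edgeR, were 2 with RLE scaling, no filter, DESeq2, limma-voom and MDAH-2774 alone (1 to 2 leaving out 1 library), and variants higher 0 to 1. In OVSAHO the clustered count of 1 was 0 with no filter, the 1 CPM filter, limma-voom, both RPKM fits and OVSAHO alone (0 to 2 leaving out 1 library), and variants lower were 2 with upper-quartile scaling (1 to 2). For the difference, clustered genes lower, 2 by edgeR, were 4 with DESeq2, 4 with limma-voom, 9 and 5 on RPKM plus 1 and 0.1 (1 to 3), clustered genes higher 0 to 1, and variants higher, 3 by edgeR, were 1 on either RPKM scale (1 to 4). Between vehicle groups, clustered genes higher, 5 by edgeR, were 3 with no filter and 3 with the 1 CPM filter (3 to 5), and clustered genes lower, 12 by edgeR, were 3 with the 1 CPM filter and 7 with limma-voom (6 to 13). H3-5 between vehicle groups, at 0.03 by edgeR, was -1.28 to 0.5 leaving out 1 library and turned to -1.28 without vehicle OVSAHO replicate 3 (edgeR adjusted p = 0.0279), which held 218 counts, against 77 and 24 in the others. The causes were not tested.

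Over single genes, 95 of 110 values of called genes under the alternatives kept their call in MDAH-2774, 87 of 108 in OVSAHO, 94 of 126 in the difference and 462 of 535 between vehicle groups. Over all genes, upper-quartile scaling gave 999 higher and 1173 lower in OVSAHO against 1241 and 883 in the TMM fit, and 1295 and 1014 in MDAH-2774 against 1090 and 1222. Limma on log2(RPKM + 1) gave 1533 and 1020 in MDAH-2774, and shifted the median of all genes between vehicle groups to -0.133, or -0.165 with 0.1.

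Same-numbered libraries did not pair: their deviations correlated at -0.224 to 0.08. With the replicate number as a block, 3 clustered genes were higher in MDAH-2774 and 0 in OVSAHO, and for the difference 1 clustered gene was lower and 2 variants were higher.

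Low counts limit the precision of the clustered genes: a library was at 0 for 19 of 30 in treated and 18 of 30 in vehicle OVSAHO cells, and for 2 of 30 in treated and 11 of 30 in vehicle MDAH-2774 cells.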
